A study of Mus musculus with 8 samples.

Results

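The proteasome genes were described by how much of each gene lay under peaks of H3K36me3, the trimethylation of histone H3 that the methyltransferase Setd2 places on the bodies of transcribed genes. They were taken by name, as the protein-coding genes whose symbol starts with Psma, Psmb, Psmc, Psmd, Psme, Psmf or Psmg followed by a digit, and 51 of 21887 protein-coding genes met this rule. No measured value entered this rule, which was set with earlier results of these data known. Libraries of immunoprecipitated chromatin (ChIP-seq) came from bone marrow stromal cells, adherent marrow cells that include progenitors of bone and fat, taken at passage 2 from Setd2 fl/fl mice (C57BL/6J). Both groups carried the floxed alleles, a lentivirus and 4 days of puromycin at 2 µg/ml. The WT group received a lentivirus for GFP, and the KO group one for Cre recombinase, which deletes the floxed part of Setd2 in the cells it enters. Each group had 2 H3K36me3 libraries, 1 control library from chromatin that saw no antibody (Input) and 1 with an antibody against no chromatin mark (IgG). Whether the H3K36me3 libraries within a group stem from different cultures is not given, and p-values therefore cover only the spread between these libraries, which may be technical.

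The proteasome degrades proteins that carry ubiquitin chains. Its core particle is a barrel of alpha and beta rings with the proteolytic sites inside, and its regulatory cap binds ubiquitin, removes it, and unfolds the substrate with a ring of ATPases. Cells exposed to interferon gamma swap the 3 catalytic beta subunits for immune subunits, which changes the peptides offered to T cells. Constitutive proteasome genes are expressed in nearly all cells.

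Coverage is the percent of a gene's annotated span (GRCm38) that lay under peaks, in the lists called against Input unless IgG is named, and a mean stands with its SD between both libraries of the group (n = 2). The read depth behind the lists is unknown. Setd2 itself (chromosome 9, 110532500 to 110618633) had 66.4% and 60.5% in the WT libraries, against 0.690% and 1.70% in the KO libraries (limma adjusted p 0.000259). Peaks over the gene do not check the deletion itself. Of 12 stromal markers, 9 passed the filter on low coverage described below, and mean coverage of the 12 was 39.7% ± 2.18 in WT and 15.9% ± 1.30 against IgG. Vim and Col1a1 had WT means of 87.2% and 68.8% against Input and 0% against IgG. The stromal markers Thy1 and Lepr had 0% and 2.07%. Mean coverage of 5 endothelial markers was 3.29% ± 1.75.

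In WT the proteasome genes were broadly covered, and in KO they were nearly bare. Mean coverage over all 51 was 61.1% and 62.8% in the WT libraries, against 3.18% and 3.22% in the KO libraries. Over all 21887 protein-coding genes it was 26.3% and 25.5% (WT), against 2.92% and 3.72% (KO). The mean of the proteasome genes lay above that of all genes in WT and close to it in KO. Their KO mean includes Psme2b, with 57.2% and 58.1% in the KO libraries. Medians of the genes' KO means were 0.961% in the proteasome genes and 2.17% in all protein-coding genes. At least 50% of the span was covered in both WT libraries in 40 of the 51, beside 22.3% of all protein-coding genes. In 25 of the 51 neither KO library had a single covered base, beside 33.1% of all protein-coding genes. In 45 (88.2%) both KO libraries covered under 10% of the span, near the 89.2% of all protein-coding genes.

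Coverage was tested between KO and WT with limma across the 10809 protein-coding genes whose mean over the 4 libraries was at least 10%, with Benjamini-Hochberg adjustment over all of them. Because KO coverage was low, this filter mainly admits genes that were covered in WT. Of the 51 proteasome genes 50 passed it, 49 fell, and Psmb11 did not pass the test. None rose in the limma fit. At an unadjusted p under 0.05 none had a higher KO value (0 of 50, beside 60 of the 10809 tested genes). Among all tested genes 92.6% fell and 0.555% rose, and the share of proteasome genes that fell is near that background. Without the filter 49 of the 51 fell in the limma fit, beside 58.5% of the 18288 genes with a peak in any library. None rose there, while 2.69% of those 18288 genes rose. In the same fit 0 of the 51 were higher at an unadjusted p under 0.05, beside 730 of the 18288. Both KO libraries lay below both WT libraries in 49 of the 50, beside 94.8% of all tested genes. The median change of the 50 was -64.6 percentage points, and that of all tested genes was -47.7 points. Each library was also divided by its own mean coverage, so that a gene counts as lower only if it lost a larger share than the average gene. All values were then multiplied by the mean of the 4 library means, so they are no longer percent of span. On this scale the median change of all tested genes was -16.7 and that of the 50 was -30.2. These values cannot be set against the percentage points above. In that limma fit 37 of the 50 fell, beside 45.2% of all tested genes, and 0 rose, beside 2.41%. A gene at 0% in both KO libraries can only have a negative change there. Such genes were 25 of the 50, beside 25.2% of all tested genes, and the 50 are shorter (median 11.3 kb, beside 20.8 kb). At an unadjusted p under 0.05, 1 of the 50 (Psmb11) was higher there, beside 404 of the 10809 tested genes. The 12 genes that lost the call were Psma2, Psmb1, Psmc1, Psmc3ip, Psmd4, Psmd7, Psme2, Psme2b, Psme3ip1, Psmg1, Psmg2 and Psmg4. Of these, Psmd4, Psme2, Psme2b and Psmg4 turned to a positive change after scaling, with limma adjusted p-values of 0.597, 0.830, 0.109 and 0.392, as did Psmb11 (0.0558).

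**Figure D1:**
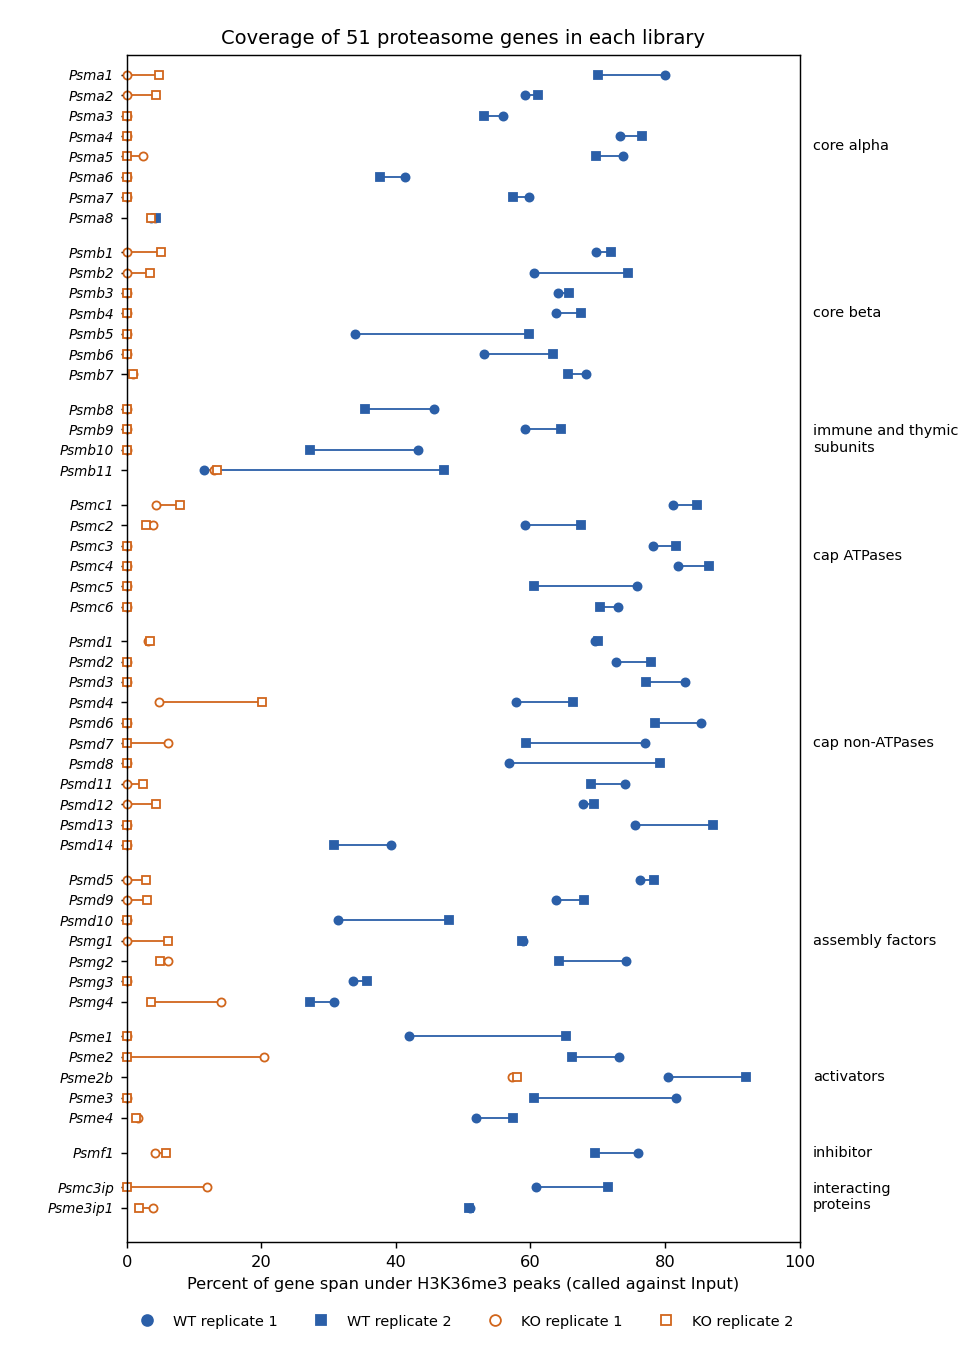
Percent of each gene's span under H3K36me3 peaks (x axis) for the 51 proteasome genes, grouped by role, with filled blue points for the WT libraries and open orange points for the KO libraries (circle, replicate 1; square, replicate 2; a line joins the libraries of a group). The WT points lie right of the KO points in 49 genes. Psma8 and Psmb11 are the exceptions, and Psme2b keeps 57.2% and 58.1% in KO.

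Along the genes, WT coverage was low at the 5′ end and high at the 3′ end. Each gene with a strand in the RefSeq promoter table (43 of the 51, all of them tested) was cut into 10 equal bins. Mean WT coverage of these 43 was 5.69% ± 0.0618 in bin 1, 44.9% ± 5.39 in bin 3, 67.1% ± 5.58 in bin 5 and 85.4% ± 3.83 in bin 10. Past the 3′ end it was 52.1% ± 2.71 over 5 kb, a stretch that can hold other genes. In all 8813 tested genes with a strand, bin 1 had 10.6% ± 0.335 and bin 10 had 66.9% ± 1.44. In KO the proteasome genes had 1.25% ± 0.539 in bin 1, 4.64% ± 0.152 in bin 5 and 1.42% ± 0.814 in bin 10. Bins 4 and 6 were close to bin 5 in KO, at 4.60% ± 0.189 and 4.60% ± 1.16. KO replicate 1 was highest in bin 6, at 5.42%.

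Of the 43 genes, 41 had more WT coverage in bins 6 to 10 than in bins 1 to 5. In bin 1, 36 had under 10%, and in bin 10, 38 had at least 50%. These counts were not made for all tested genes, whose mean also climbed, from 10.6% in bin 1 to 66.9% in bin 10. Psma7, an alpha subunit, shows the usual shape, with 17.2% in bins 1 to 5 and 100% in bins 6 to 10. The exceptions were Psmd1, the large scaffold of the cap, with 82.5% and 57.1%, and Psme2b, with 94.4% and 78.1%. In Psmd1, 18808 bp of the span also belong to other annotated genes, Htr2b among them.

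**Figure D2:**
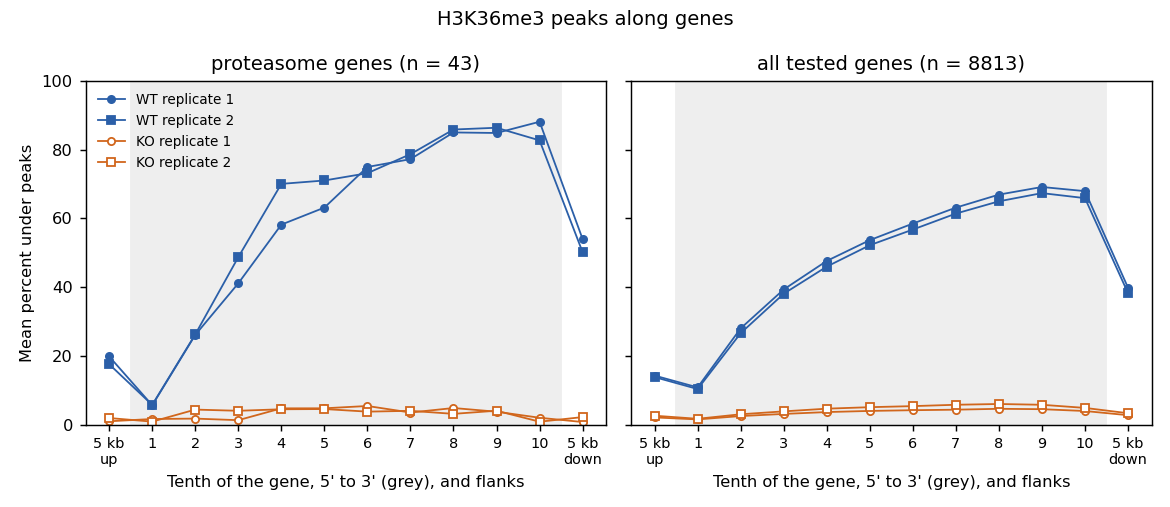
Mean percent under peaks (y axis) in 10 equal bins from the 5′ to the 3′ end (grey) and in 5 kb on either side, for the 43 proteasome genes with a known strand (left) and all 8813 tested genes with a known strand (right), 1 line per library. WT lines climb from 5.69% ± 0.0618 to 85.4% ± 3.83 in the proteasome genes. Their KO mean is 4.64% ± 0.152 in bin 5, with close values in bins 4 and 6.

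The bare 5′ ends included the promoters. The window from 250 bases before to 50 bases after the annotated start, taken from RefSeq (GRCm38.p6), held a peak base in 1 and 2 of 43 promoters in the WT libraries and in 1 and 0 in the KO libraries. Among the promoters of all 8813 tested genes the share with a peak base was 3.88% and 3.63% in WT. The exceptions were Psme2b and, in WT replicate 2, Psmb11. The promoters of 4 genes of the core are shown, a pair of constitutive catalytic subunits and the immune subunits that replace them, because the gene bodies behind them carry peaks while these windows carry none in any library. Letters run 5′ to 3′ along the gene. Capitals mark matches, on either strand, to TGACNNNGC, the antioxidant response element through which Nfe2l1 and Nfe2l2 activate proteasome genes, and to TTCNNNGAA, the gamma-activated site of interferon signalling.
Psmb5 (chr14:54617946-54618245, minus strand): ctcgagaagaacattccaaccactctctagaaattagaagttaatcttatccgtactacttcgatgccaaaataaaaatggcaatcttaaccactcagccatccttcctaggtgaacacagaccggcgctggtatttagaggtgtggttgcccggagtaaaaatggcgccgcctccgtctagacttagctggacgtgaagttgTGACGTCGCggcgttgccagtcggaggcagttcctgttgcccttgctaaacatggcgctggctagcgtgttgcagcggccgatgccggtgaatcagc
Psmb8 (chr17:34197945-34198244, plus strand): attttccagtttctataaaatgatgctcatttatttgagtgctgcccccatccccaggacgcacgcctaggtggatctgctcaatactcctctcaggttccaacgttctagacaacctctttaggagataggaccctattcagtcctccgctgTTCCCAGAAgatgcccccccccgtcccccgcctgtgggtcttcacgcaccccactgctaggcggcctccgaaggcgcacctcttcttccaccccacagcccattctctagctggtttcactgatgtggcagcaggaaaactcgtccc
Psmb6 (chr11:70525107-70525406, plus strand): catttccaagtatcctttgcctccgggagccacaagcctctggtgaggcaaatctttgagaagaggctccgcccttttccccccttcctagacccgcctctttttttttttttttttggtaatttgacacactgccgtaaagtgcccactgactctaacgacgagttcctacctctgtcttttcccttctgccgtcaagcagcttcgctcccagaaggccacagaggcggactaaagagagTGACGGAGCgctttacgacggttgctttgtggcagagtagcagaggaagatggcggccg
Psmb9 (chr17:34187281-34187580, minus strand): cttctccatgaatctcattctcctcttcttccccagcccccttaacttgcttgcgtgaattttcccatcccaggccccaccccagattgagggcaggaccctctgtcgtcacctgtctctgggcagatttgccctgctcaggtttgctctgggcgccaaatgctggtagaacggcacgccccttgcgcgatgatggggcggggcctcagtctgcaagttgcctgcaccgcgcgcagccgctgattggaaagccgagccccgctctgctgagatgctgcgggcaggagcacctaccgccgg

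Psmb5 holds TGACGTCGC, Psmb6 holds TGACGGAGC, Psmb8 holds TTCCCAGAA, and the Psmb9 window matches neither motif. No matches of different motifs overlapped in these windows. Over the 43 proteasome promoters, TGACNNNGC was found in 6, beside 13.1% of the promoters of 17492 protein-coding genes. TTCNNNGAA was found in 3 (6.98%, beside 7.78%). A match describes letters only, and no binding was measured here.

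The alpha subunits form the outer rings of the core and gate its entrance. Their mean coverage over 8 genes, with Psma8 among them, was 54.8% ± 1.47 in WT and 1.21% ± 0.558 in KO. The median of the 8 WT means was 59.4%. All 7 that passed the filter fell, near the 92.6% of all tested genes. Psma4 (chromosome 9, 54950781 to 54958034) had 73.3% and 76.5% of its span covered in the WT libraries and 0% in both KO libraries and fell the most, by 74.9 points (SE 2.23, limma adjusted p 0.000211). Its WT peaks depended on the control library, and against IgG it had 22.4% and 75.7% in WT (limma adjusted p 0.0965). Psma6 had 41.3% and 37.6% of its span covered in the WT libraries and 0% in both KO libraries and fell the least, by 39.5 points (SE 2.30, limma adjusted p 0.000362). Its WT peaks lay in bins 6 to 10, which were covered over 77.1%, and bins 1 to 5 had 1.87%. The other tested alpha genes had WT means between 54.5% (Psma3) and 75.0% (Psma1).

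Psma8, the alpha subunit of the germ cell proteasome of the testis, stood apart from the other alpha genes. It lies on chromosome 18, 14706135 to 14762301 and had 3.54% and 4.41% of its span covered in the WT libraries, against 4.14% and 3.68% in the KO libraries, so the groups overlapped, and it was below the filter. Its 3 and 4 peaks in the WT libraries, like its 4 and 3 in the KO libraries, were narrow, the widest spanning 834 bp. Of 4 germ cell markers none passed the filter. Sycp1 had 3.16% ± 0.607 in WT and 4.92% ± 0.115 in KO. Dazl had 0% in every library and Ddx4 0% in WT, whereas Sycp3 had 12.2% ± 1.61 in WT and 0% in KO.

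The 7 constitutive beta genes had 63.0% ± 5.55 in WT and 0.744% ± 0.860 in KO. Each of the 7 fell, near the 92.6% of all tested genes. Psmb5, the chymotrypsin-like catalytic subunit (chromosome 14, 54614120 to 54617995), had 33.9% and 59.7% of its span covered in the WT libraries and 0% in both KO libraries. It fell by 46.8 points (SE 9.84, limma adjusted p 0.0132), the smallest fall of the 7, with WT libraries that lay further apart than in any other of them. Without KO replicate 1 or without KO replicate 2 its call was lost (limma adjusted p 0.0726 and 0.0613), while the difference remained the same because both KO libraries were at 0%. Psmb6, the caspase-like subunit (chromosome 11, 70525324 to 70527858), had 53.1% and 63.3% of its span covered in the WT libraries and 0% in both KO libraries and fell by 58.2 points (SE 4.28, limma adjusted p 0.000629). Psmb7, the trypsin-like subunit, spans 55.9 kb on chromosome 2, 38588046 to 38643952 and had 68.3% and 65.5% of its span covered in the WT libraries, against 0.953% and 0.968% in the KO libraries. It fell by 66.0 points (SE 2.17, limma adjusted p 0.000211). Psmb1, a structural subunit, had the largest fall, from 70.9% ± 1.62 to 2.55% ± 3.61. Psmb2, Psmb3 and Psmb4, also structural, fell by 65.9, 64.9 and 65.7 points. For Psmb4 the call was lost when only peaks with the authors' score of at least 50 were kept (limma adjusted p 0.118).

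The genes of the immune subunits also held peaks in WT and none in KO. Psmb8, which replaces Psmb5 and lies in the major histocompatibility complex (chromosome 17, 34198195 to 34201454), had 45.7% and 35.4% of its span covered in the WT libraries and 0% in both KO libraries and fell by 40.6 points (SE 4.24, limma adjusted p 0.00163). Psmb9, which replaces Psmb6 (chromosome 17, 34182030 to 34187330), had 59.1% and 64.6% of its span covered in the WT libraries and 0% in both KO libraries and fell by 61.9 points (SE 2.79, limma adjusted p 0.000242). Psmb10, which replaces Psmb7 (chromosome 8, 105935728 to 105938392), had 43.3% and 27.2% of its span covered in the WT libraries and 0% in both KO libraries and fell by 35.2 points (SE 6.28, limma adjusted p 0.00804). Its call was lost without KO replicate 1 (limma adjusted p 0.0542), and without WT replicate 1 it was below the filter. The 3 genes had no KO peak at all, and their values in WT and KO were the same against IgG as against Input. Their WT mean, 45.9% ± 4.92, lies below that of the constitutive beta genes, and no test of that difference was made. The 3 genes span 2.665 to 5.301 kb. The constitutive Psmb4, Psmb5 and Psmb6 span 2.635, 3.876 and 2.535 kb and had WT means of 65.7%, 46.8% and 58.2%. A part of gene length in the difference was not tested. In WT, bins 1 to 5 of Psmb8 and Psmb10 were at 0%, and bins 6 to 10 had 81.1% and 70.4%. Between Psmb9 and Psmb8 lies Tap1, a subunit of the peptide transporter fed by the immune proteasome, with 80.8% and 75.4% in the WT libraries and 0% in both KO libraries.

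Immune subunits are abundant in blood cells, and haematopoietic markers carried some of the mark too. Of 11 such markers 7 passed the filter, beside 10809 of all 21887 protein-coding genes. All 7 fell, near the 92.6% of all tested genes. Mean coverage of the 11 was 24.3% and 29.0% in the WT libraries, against 2.53% and 4.11% in the KO libraries. Against IgG the WT mean was 15.6% ± 3.04. Lyz2, the lysozyme of myeloid cells, had 74.9% and 87.6% in WT against Input and 0% against IgG. Cd68, a macrophage glycoprotein, had 37.0% and 71.3% in WT, and Ptprc, the pan-leukocyte phosphatase, had 15.0% and 14.2%. Cd14 was at 0% in every library, and Cd3e, a marker of T cells, was at 0% in WT. The part of blood cells in the coverage of the immune subunits was not tested, and fewer cells with the mark and less of the mark per cell cannot be told apart in these bulk libraries.

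Psmb11, the subunit of the thymic proteasome, was the 1 tested gene that did not pass. It lies 7.31 kb from Psmb5 on chromosome 14, 54625310 to 54629556 and had 11.5% and 47.1% of its span covered in the WT libraries, against 12.9% and 13.4% in the KO libraries. WT replicate 1 lay below both KO libraries and WT replicate 2 far above, and the change of -16.2 points (SE 13.4) was within the spread of WT (limma adjusted p 0.306). Without WT replicate 1 the change was -33.9 points (limma adjusted p 0.00791), in a fit with 1 WT library whose spread comes from the KO libraries alone, and without WT replicate 2 it was 1.61 points. Against IgG, WT replicate 1 had 0%. The KO libraries each had 1 peak there, of 549 and 568 bp, near the 5′ end where WT had none. The thymic epithelial markers Aire and Krt5 had 0% in every library, and Foxn1 had 1.94% in WT replicate 2 and 0% elsewhere.

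**Figure D3:**
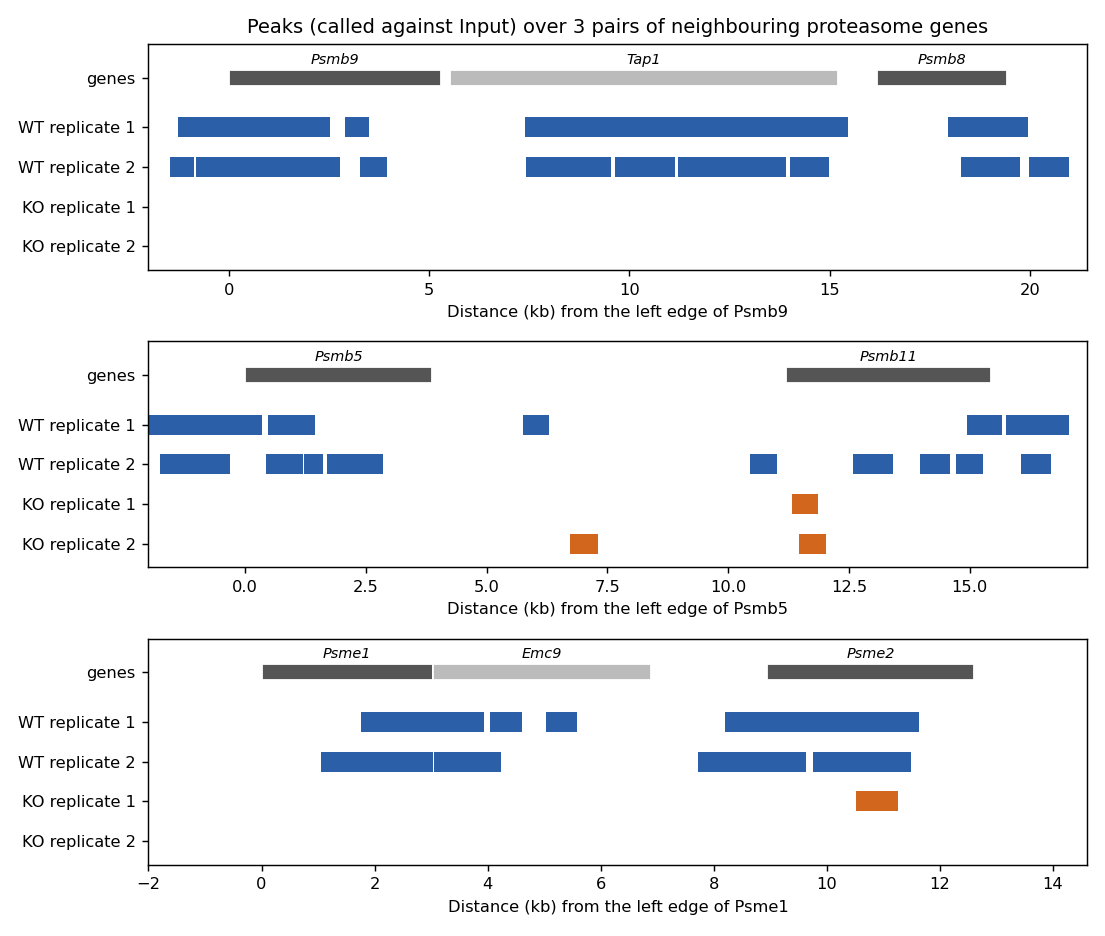
Peaks called against Input in each library (bars; blue, WT; orange, KO) over Psmb9, Tap1 and Psmb8 (top), Psmb5 and Psmb11 (middle) and Psme1, Emc9 and Psme2 (bottom), with distance in kb from the left edge of the first gene and genes as grey bars (dark, proteasome genes). Psmb9, Tap1, Psmb8, Psmb5 and Psme1 hold WT peaks and no KO peak, and Psmb11 and Psme2 hold a KO peak.

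The 17 genes of the cap had a mean of 71.3% ± 0.313 in WT, and the 15 of the core one of 58.6% ± 1.80. The core mean includes Psma8, with 3.54% and 4.41% in the WT libraries. Medians of the genes' WT means were 71.5% in the cap and 64.9% in the core, and no test of that difference was made. The 6 ATPase genes of the cap, whose products form the unfolding ring, had 75.1% ± 0.213 in WT and 1.58% ± 0.307 in KO. All 6 fell, beside 92.6% of all tested genes. Psmc4 (chromosome 7, 28041702 to 28050092) had 81.9% and 86.5% of its span covered in the WT libraries and 0% in both KO libraries and fell by 84.2 points (SE 2.50, limma adjusted p 0.000211), more than any other proteasome gene. Psmc2 had 59.2% and 67.6% of its span covered in the WT libraries, against 3.91% and 2.84% in the KO libraries and fell the least of the 6, by 60.0 points (SE 3.67, limma adjusted p 0.000408). Psmc1 kept 4.28% and 7.96% in KO, and its WT libraries had 81.2% and 84.7%. Psmc3, Psmc4, Psmc5 and Psmc6 had no KO peak in either library.

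The 11 cap genes that are not ATPases had 69.3% ± 0.367 in WT and 2.02% ± 1.04 in KO. Each of the 11 fell, beside 92.6% of all tested genes. Psmd6, of the outer lid, had 85.4% and 78.4% of its span covered in the WT libraries and 0% in both KO libraries and fell the most, by 81.9 points (SE 3.18, limma adjusted p 0.000214). Psmd2, a scaffold that docks ubiquitin shuttles, had 72.8% and 77.9% of its span covered in the WT libraries and 0% in both KO libraries and fell by 75.4 points (SE 2.68, limma adjusted p 0.000211). Psmd14, the enzyme that cuts ubiquitin off the substrate, spans 88.7 kb (chromosome 2, 61711694 to 61800376) and fell the least, by 35.0 points (SE 3.65, limma adjusted p 0.00162). It had 39.2% and 30.8% of its span covered in the WT libraries and 0% in both KO libraries, in 43 and 40 separate WT peaks. Psmd7, which pairs with Psmd14 in the lid, had 77.0% and 59.3% of its span covered in the WT libraries, against 6.13% and 0% in the KO libraries, but against IgG 0% and 50.3% in WT, where it was not called (limma adjusted p 0.340). Psmd8, also of the lid, likewise had 56.8% and 79.2% in WT against Input and 12.3% and 79.2% against IgG (limma adjusted p 0.176 there).

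Psmd4, a ubiquitin receptor of the cap (chromosome 3, 95032688 to 95042614), kept more coverage in KO than the other cap genes. It had 57.9% and 66.4% of its span covered in the WT libraries, against 4.79% and 20.1% in the KO libraries and fell by 49.7 points (SE 6.81, limma adjusted p 0.00362). In KO replicate 2 it held 3 peaks, none of which remained against IgG, where it had 4.79% and 0% in KO. Its call was lost without WT replicate 1 or 2 (limma adjusted p 0.118 and 0.142), fits in which the spread comes from the KO libraries alone.

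The assembly factors, chaperones that are not part of the finished particle, had 53.5% ± 1.15 in WT and 2.91% ± 0.0379 in KO. All 7 fell, beside 92.6% of all tested genes. Psmd5, a chaperone of the ATPase ring, had 76.3% and 78.4% of its span covered in the WT libraries, against 0% and 2.93% in the KO libraries and fell the most, by 75.9 points (SE 2.29, limma adjusted p 0.000211). Its partners Psmd9 and Psmd10 fell by 64.4 and 39.7 points, Psmd10 from 31.5% and 48.0% to 0% in both KO libraries. In Psmd10, 2867 bp of the 8287 bp span also belong to Atg4a. On the bases that no other annotated gene covers, Psmd10 had 48.1% and 63.1% in the WT libraries, a change of -55.6 points. Psmg1 and Psmg2, which act as a pair on the alpha ring, had WT means of 58.8% ± 0.0641 and 69.2% ± 7.01. The other pair, Psmg3 and Psmg4, had lower ones, 34.7% ± 1.49 and 29.1% ± 2.51. Psmg3 is short, and its 3.28 kb were bare in bins 1 to 6 in WT. Psmg4 (chromosome 13, 34162964 to 34178172) had 30.8% and 27.3% of its span covered in the WT libraries, against 14.1% and 3.68% in the KO libraries and fell by 20.2 points (SE 4.49, limma adjusted p 0.0156), the smallest fall that was called. Against IgG its change was -7.12 points (limma adjusted p 0.0467). The call against Input was lost without WT replicate 1, without WT replicate 2 and without KO replicate 2 (limma adjusted p 0.244, 0.203 and 0.0508).

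The activators open the core without ubiquitin or ATP, and their 5 genes had 67.0% ± 1.75 in WT and 13.9% ± 2.82 in KO. Without Psme2b, whose values are uncertain, the KO mean was 2.92% ± 3.67, and against IgG that of all 5 was 2.27% ± 2.84. All 5 fell. Psme1 (chromosome 14, 55578494 to 55581527) and Psme2 (chromosome 14, 55587440 to 55591101) encode the interferon-induced activator and lie on either side of Emc9. Psme1 had 42.0% and 65.2% of its span covered in the WT libraries and 0% in both KO libraries and fell by 53.6 points (SE 8.88, limma adjusted p 0.00642), but against IgG it had 0% and 65.2% in WT and was not called (limma adjusted p 0.285). Psme2 had 73.1% and 66.2% of its span covered in the WT libraries, against 20.5% and 0% in the KO libraries and fell by 59.4 points (SE 8.28, limma adjusted p 0.00379). Its KO coverage came from 1 peak in 1 library, and its call was lost without WT replicate 1 or 2 (limma adjusted p 0.155 and 0.136). Psme3, the nuclear activator, had 81.6% and 60.5% of its span covered in the WT libraries and 0% in both KO libraries and fell by 71.1 points (SE 8.11, limma adjusted p 0.00211). Psme4, an activator linked to histone breakdown, is the longest of all with 109 kb and had 51.9% and 57.4% of its span covered in the WT libraries, against 1.62% and 1.30% in the KO libraries, in 58 and 54 WT peaks and 3 in each KO library.

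Psme2b kept the most coverage in KO. It is a short copy of Psme2 (1066 bp, chromosome 11, 48945345 to 48946410), so reads may be shared between the 2 genes and its values are uncertain. It had 80.4% and 92.0% of its span covered in the WT libraries, against 57.2% and 58.1% in the KO libraries and fell by 28.6 points (SE 5.89, limma adjusted p 0.0125). Against IgG it had 80.4% and 92.0% of its span covered in the WT libraries and 0% in both KO libraries. The KO peaks, of 610 and 619 bp, overlapped each other and were absent from the IgG lists. Counting only the 805 bp that no other annotated gene covers, its call was lost (limma adjusted p 0.251), as it was with higher scores or merged peaks. Without Psme2b, 13.2% was the highest KO mean of a proteasome gene, in Psmb11, followed by 12.5% in Psmd4.

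Psmf1, an inhibitor of the core, had 75.9% and 69.6% of its span covered in the WT libraries, against 4.17% and 5.85% in the KO libraries and fell by 67.8 points (SE 3.07, limma adjusted p 0.000243). A pair of genes meets the name rule without being part of the proteasome. Psmc3ip, a factor of meiotic recombination, had 60.8% and 71.5% of its span covered in the WT libraries, against 11.9% and 0% in the KO libraries, but 0% in WT replicate 1 against IgG, where it was not called (limma adjusted p 0.364). Its call was also lost without WT replicate 1 or 2 (limma adjusted p 0.0730 and 0.0876). Psme3ip1, a partner of the nuclear activator, had 51.1% and 50.9% of its span covered in the WT libraries, against 3.91% and 1.86% in the KO libraries and fell by 48.1 points (SE 2.07, limma adjusted p 0.000224).

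The control library set against the H3K36me3 reads moved some genes far and most little. Against IgG, mean coverage over the 51 genes was 52.1% and 58.0% in the WT libraries, against 1.79% and 1.37% in the KO libraries. In the limma fit of the 50 genes tested there 44 fell, beside 91.4% of all genes tested against IgG. At an adjusted p under 0.05, 0 rose, beside 0.218%. At an unadjusted p under 0.05, 0 were higher, beside 22 of the 9635 genes tested against IgG. The genes that lost the call were Psma4, Psmc3ip, Psmd7, Psmd8 and Psme1. Psmd12, a lid subunit, kept its call with a change of -39.6 points, against -66.5 with Input. In each of the 5 without a call, WT replicate 1 held under 25% against IgG and WT replicate 2 at least 50%.

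**Figure D4:**
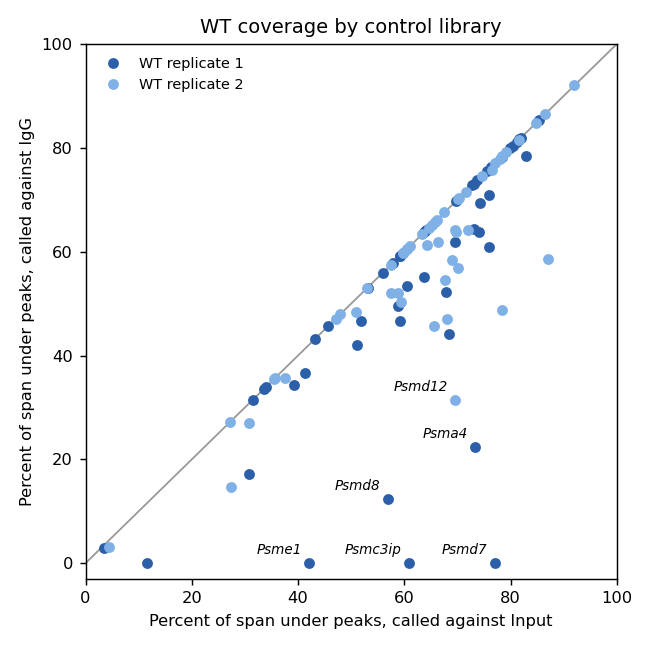
WT coverage of the 51 proteasome genes against Input (x axis, percent) and against IgG (y axis, percent), 1 point per gene and WT library, with the diagonal of equal values. Most points lie on or just under the line. The named points lie over 30 points below it, and Psmd7, Psmc3ip and Psme1 have 0% against IgG in WT replicate 1.

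Peaks over proteasome genes were fewer and narrower in KO. The 51 genes held 407 and 432 peaks in the WT libraries, against 30 and 39 in the KO libraries. Mean width was 1536 and 1424 bp (WT), against 576 and 569 bp (KO). Peaks wider than 2 kb made up 22.6% and 19.7% of the WT peaks over proteasome genes, beside 8.61% and 7.57% of all WT peaks, and no KO peak over these genes was that wide, beside 0.0742% and 0.0690% of all KO peaks. The widest, 7973 bp, lay over Psmd3, a lid subunit, in WT replicate 1.

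The peaks left in KO were seldom the same in both libraries. Both WT libraries had a peak in every proteasome gene, and the KO libraries had one in 17 and 22 of the 51. Of 970.1 kb of proteasome gene span, 17.3 and 21.8 kb were covered in the KO libraries and 2.61 kb in both. That is 15.1% and 12.0% of each, whereas 79.7% and 79.5% of the WT bases were shared. The KO libraries covered 1.78% and 2.24% of the span and the WT libraries 57.9% and 58.0%. Wider coverage by itself raises the shared part, and the overlap that random placement would give was not computed. Of the KO bases in these genes, 60.3% and 60.5% lay where both WT libraries had peaks, which cover 46.1% of the span.

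Genes without a covered KO base were counted by gene length, with no test. Of the tested proteasome genes under 5 kb it was 7 of 11, beside 62.7% of all tested genes of that length. Of the tested proteasome genes of 5 to 10 kb, 10 of 12 had 0% in both KO libraries, beside 54.9% of all tested genes of that length. Of those of 10 to 20 kb it was 5 of 14, beside 29.1%. Of those of 20 to 50 kb it was 2 of 9, beside 9.34%, and of the longer ones it was 1 of 4, beside 1.15%. Spearman's rho between WT coverage and length over the 51 genes was 0.0556, across genes, which are not independent replicates. Mean WT coverage of proteasome genes of 5 to 10 kb was 68.2%, and that of all tested genes of the same length was 52.6%.

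Genes that work with the proteasome but have other names were also counted. Of 30 such genes, 29 were found in the gene table, all 29 passed the filter, and all 29 fell, beside 92.6% of all tested genes. Their mean was 56.2% ± 0.0883 in WT and 2.51% ± 1.62 in KO. Nploc4, a cofactor of the segregase Vcp, fell the most, from 81.2% ± 3.34 to 0.838% ± 1.18, and Uchl5, a deubiquitinase of the cap, the least, from 19.1% ± 2.82 to 1.69% ± 0.393. The cap subunits Adrm1 and Sem1 fell by 61.5 and 20.5 points, and Pomp, the chaperone that matures the core, by 76.8 points. Nfe2l1, the factor that raises proteasome genes when the proteasome is inhibited, had 58.8% and 52.4% of its span covered in the WT libraries and 0% in both KO libraries, but 37.3% and 0% in WT against IgG. Ubb, a polyubiquitin gene, had 45.8% and 47.3% in WT against Input and 0% against IgG.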

How the data were processed

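H3K36me3 ChIP-seq libraries of 2 WT and 2 KO samples were analysed, grouped and numbered by their titles. The submitters' processing notes name Bowtie2 and GRCm38. The authors deposited 8 peak lists, each of 1 H3K36me3 library called with Input or with IgG of its group as control, per the labels. Peak names start with MACS. Its version and settings were not given in the sources used here. Each peak's score is the authors' deposited value, on a scale that is not stated, and served only as a filter in 1 alternative. The lists hold no read counts, so depth is unknown. Peaks become more numerous and wider with depth, and for genes that lack peaks no upper bound on the signal can be set. Both libraries of a group share their control libraries.

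Touching peaks (autosomes, X and Y) were merged, and the percent of each gene's span under them was computed. Spans were those of RefSeq (GRCm38.p6), from a table without exons (49943 annotated genes, 21887 of them protein-coding), and promoter windows and strands from the RefSeq promoter table. The test of KO against WT was limma 3.58.1 (R 4.3.3, statmod 1.5.0), with lmFit and then eBayes, trended and robust, on the percent values of all genes whose 4 libraries averaged at least 10%, at an adjusted p under 0.05. The fit was also run on simulated coverage, with the spread of both groups taken from the WT libraries. The KO values, many of them at 0%, were not simulated with their own spread, and no result here rests on that run. Other steps used Python 3.11.15, numpy 2.4.6, pandas 2.3.3 and scipy 1.17.1, and plots matplotlib 3.10.9.

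The genes, roles, marker lists and tests were chosen with earlier results of these data known. All 51 genes are accounted for. Named with values are the catalytic pairs, Psma8, Psmb11, the activators and Psmf1, the largest and smallest fall of each class, genes not called or below the filter, and the 3 with the highest KO coverage. Others were named after their values were seen. Alternatives were IgG lists, scores of at least 50, filters of 25% and none, scaling to mean coverage, an arcsine square root, bases of no other gene (at least 500), peaks within 1 kb merged, a replicate block, and leaving out each library.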

Additional observations from a re-analysis of the deposited data

How the results depend on the processing

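Of the proteasome genes, 49 fell against Input, and between 37 and 49 fell under the alternatives: 44 against IgG, 45 with scores of at least 50, 41 with a filter of 25% (which tests 41), 49 without a filter, 37 after scaling, 49 after the arcsine square root, 48 on bases of no other gene and 48 with peaks merged. The share of all tested genes that fell ranged from 45.2% after scaling to 98.6% with a filter of 25%. No proteasome gene rose in any of these limma fits. At an unadjusted p under 0.05 only Psmb11 was higher, after scaling, beside 404 of the 10809 tested genes there. Leaving out a library gave 45 to 47, beside 80% to 85.8% of all tested genes. After scaling, the changes of Psme2, Psme2b, Psmg4, Psmd4 and Psmb11 turned positive, with no call. They were 12.0, 209, 26.0, 16.4 and 41.9 in scaled values, which are not percentage points. The change of Psmb11 was -33.9 without WT replicate 1 (adjusted p 0.00791) and 1.61 without WT replicate 2, with the spread taken from the KO libraries alone and the lone WT library assumed to vary like them.

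Mean WT coverage of the 51 genes, 61.9% against Input, was 55.0% against IgG, 52.0% with scores of at least 50 and 69.1% with peaks merged. Mean KO coverage, 3.20%, was 1.58%, 0.519% and 3.54%, and 3.48% on bases of no other gene. Over all genes, 10013 fell, 5883 with a filter of 25% and 4890 after scaling. The 60 that rose became 21 against IgG, 12 with scores of at least 50, 18 with a filter of 25%, 492 without a filter, 261 after scaling, and 26 to 200 when a library was left out. The cause was not tested. The labels give both groups replicates 1 and 2 but no shared culture. Replicate differences of WT and KO were not correlated across tested genes (r = -0.00333). Both KO libraries were at 0% in 2722 of the 10809 tested genes, so this correlation cannot show whether cultures were shared. With the replicate number as a block, 49 proteasome genes fell, and 9993 of all tested genes.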

Other observations

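The RefSeq table also holds 6 pseudogenes of the family, copies of Psma5, Psmb5, Psmb6 and Psmb7, which are not part of the 51 genes. In WT all 6 had 0% in both libraries. In KO 5 of them had 0%, and Psmb6-ps2 on chromosome 1 had 0% in the first KO library and 52.8% in the second. The parent genes Psma5, Psmb5, Psmb6 and Psmb7 had WT means of 71.8%, 46.8%, 58.2% and 66.9%. Psme2b, the annotated copy of Psme2 that counts as protein-coding, differs from these pseudogenes in its WT coverage of 80.4% and 92.0%, and its WT replicate 1 peak of 2342 bp is wider than the gene.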
